A study of Homo sapiens with 6 samples.

Results

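Genes of glutathione metabolism were examined in HEK293 cells that carried either a myocilin vector or a control vector. The genes were CHAC1, CHAC2, CBS, CTH, GCLC, GCLM, GSS, GSR, GPX4 and GPX8, 10 of the 18338 genes measured. They were read by every probe set that the platform annotation gives to exactly 1 of them, 19 of the 41751 probe sets in the table. The genes belong to 1 pathway and were selected on measured values of this same comparison, in particular the low values of CHAC1 and GPX8 in the myocilin line. Their differences between the lines are therefore given as a description and not as a test of the pathway.

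HEK293 cells are an established line from human embryonic kidney, and both lines here were stable Tet-On derivatives, in which doxycycline switches on the inserted gene. The myocilin line carried a vector that expresses myocilin, a secreted protein of the eye's drainage tissue, and the control line carried the control vector. Both were grown with hygromycin B and G418, and the protocols, worded alike for both lines, give 0.2 or 1 µg/ml doxycycline for 48 h. The dose behind each array is not stated, and a description naming doxycycline stands on the myocilin samples only, so exposure to the drug and line cannot be told apart. Each line was read on 3 Affymetrix HG-U133 Plus 2.0 arrays, and nothing in the labels says that these came from separate cultures, so the errors below measure the spread between arrays, which may be technical. With 1 line of each kind, myocilin cannot be told apart from other differences between the lines.

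Values are those deposited, on a log scale read as log2, with every array at a median of 0 and each probe set apparently centred on a level that the sources do not name. They show differences between arrays. A level of one gene cannot be set against that of another, and whether a low value lies above background is not known. MYOC, the induced gene, read 0.21, 0.20 and 0.24 on the myocilin arrays, against -6.71, -8.32 and -8.29 on the control arrays, higher where the labels say so. Correlations over probe sets were 0.513 to 0.608 among myocilin arrays, 0.409 to 0.464 among control arrays and -0.244 to -0.00516 between the lines. Centring of probe sets takes out the profile common to all arrays, so these are not correlations of expression levels. Of 8 markers of HEK293 cells, NEFM, INA and WT1 rose by 1.42, 0.35 and 0.28 and 0 fell, and of 11 markers of fibroblasts, endothelium and blood only COL1A1 rose, by 0.25, and 0 fell. Centred values do not show whether any of these markers is absent.

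Glutathione is a tripeptide of glutamate, cysteine and glycine and the main small thiol of the cell. Its cysteine comes from imported cystine or from methionine by transsulfuration, in which CBS joins homocysteine to serine and CTH splits the product to release cysteine. The ligase of GCLC and GCLM couples glutamate to cysteine, and GSS adds glycine. CHAC1 and CHAC2 break glutathione down inside the cell, GSR returns its oxidised form to the reduced one with NADPH, and the peroxidases GPX4 and GPX8 reduce peroxides. CHAC1 and CTH are known as targets of ATF4, the transcription factor of amino acid shortage and endoplasmic reticulum stress, while GCLC and GCLM are known as targets of NRF2, the factor of oxidative and electrophilic stress.

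In the promoter sequences from RefSeq (GRCh38.p14, 250 bases before to 50 bases after each annotated start), 3 motifs were searched on both strands: the C/EBP-ATF element TGATGNAAN, the cyclic AMP response element TGACGTCA and the core of the antioxidant response element TGACNNNGC. The printed promoters are those of the 2 genes with a match to the first motif, both low in the myocilin line, and that of the ligase subunit with a match to the last. Capitals mark the match, each of which lies on the opposite strand, so that the letters printed are the reverse complement of the motif.
CHAC1, chr15:40953221-40953520, plus strand: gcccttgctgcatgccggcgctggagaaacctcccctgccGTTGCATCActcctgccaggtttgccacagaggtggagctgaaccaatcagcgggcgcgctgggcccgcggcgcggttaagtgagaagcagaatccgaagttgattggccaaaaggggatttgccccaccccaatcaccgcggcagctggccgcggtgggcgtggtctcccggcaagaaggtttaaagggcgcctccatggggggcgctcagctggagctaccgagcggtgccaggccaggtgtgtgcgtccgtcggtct
GPX8, chr5:55159921-55160220, plus strand: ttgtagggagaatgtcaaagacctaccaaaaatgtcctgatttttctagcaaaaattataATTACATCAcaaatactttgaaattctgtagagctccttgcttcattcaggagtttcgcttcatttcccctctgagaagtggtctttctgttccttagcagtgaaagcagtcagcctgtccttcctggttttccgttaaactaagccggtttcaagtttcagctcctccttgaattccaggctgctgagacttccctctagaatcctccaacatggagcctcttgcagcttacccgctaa
GCLM, chr1:93909381-93909680, minus strand: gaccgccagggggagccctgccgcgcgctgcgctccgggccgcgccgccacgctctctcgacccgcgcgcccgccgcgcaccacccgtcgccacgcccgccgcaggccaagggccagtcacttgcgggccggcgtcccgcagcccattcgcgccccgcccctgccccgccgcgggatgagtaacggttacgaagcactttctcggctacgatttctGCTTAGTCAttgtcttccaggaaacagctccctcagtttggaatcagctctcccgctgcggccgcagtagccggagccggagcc
On the motif strand the matched bases were TGATGCAAC in CHAC1, from -210 to -202 relative to the start, TGATGTAAT in GPX8, from -190 to -182, and TGACTAAGC in GCLM, from -34 to -26. Of the members, 8 had a promoter in the table, with 13 promoters in all, and the others are GSS and GSR. The only other match was one to the antioxidant response element core in 1 of 3 CBS promoters. Of all 35116 promoters of this length, 3.61% held TGATGNAAN, 1.85% held TGACGTCA and 13.3% held TGACNNNGC, so the last is a common string. No match was found in these windows of CTH, CHAC2, GCLC or GPX4, which says only that the letters are not there. The matches are not measured binding, and the CHAC1 promoter, at 65.3% G and C, and the GPX8 promoter, at 43.0%, are otherwise unlike in base composition.

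Of the 10 genes, 5 fell in the myocilin line (CHAC1, CTH, GPX8, CBS and GCLM), 1 rose (GPX4) and 4 did not pass the threshold (CHAC2, GCLC, GSS and GSR). A gene is said to rise or fall where limma's two-sided test, adjusted over all 18338 genes by Benjamini-Hochberg, gave a value under 0.05. Over all genes 7.35% fell and 8.28% rose, 15.6% in either direction. Because the members were picked with this contrast known, nothing is read from the member count beside these shares. The median log2 difference, myocilin minus control, was -0.22 over the 10 genes and 0.02 over all genes. At the level of probe sets 8 of 19 fell and 0 rose, with 4 higher at an unadjusted limma p under 0.05 (over all probe sets 5.56% fell and 5.46% rose), and the median was -0.20 against 0.01 over all probe sets. In gene values the arrays of the lines did not overlap for 7 of the genes, 5 lower and 2 higher in the myocilin line. Of all genes, 16.0% were lower and 18.9% higher without overlap.

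**Figure D1:**
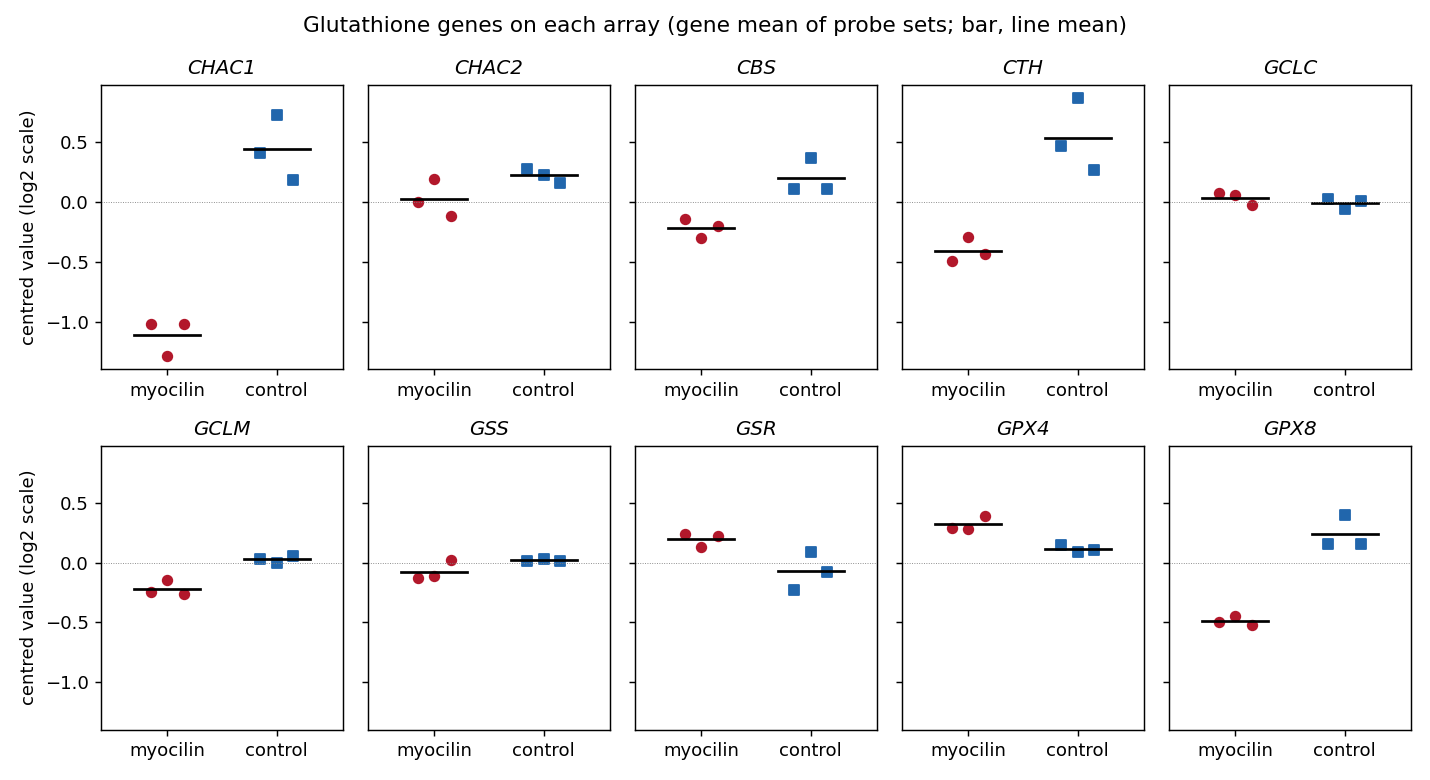
Deposited centred values (log2 scale, vertical axis) of the 10 genes on each array, as the mean of a gene's probe sets, with the 3 myocilin arrays in red on the left and the 3 control arrays in blue on the right of each panel, and a bar at each line's mean. CHAC1, CTH, GPX8, CBS and GCLM lie lower on every myocilin array than on any control array, and GSR and GPX4 higher.

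CHAC1, a gamma-glutamylcyclotransferase that cleaves glutathione and is strongly induced by stress, fell furthest of the 10. It read -1.02, -1.29 and -1.02 on the myocilin arrays, against 0.41, 0.73 and 0.18 on the control arrays. The myocilin arrays all lay below the control arrays, with 1.20 log2 units between the nearest values of the lines. The means were -1.11 ± 0.15 in the myocilin line and 0.44 ± 0.28 in the control line (SD, n = 3 each), a log2 difference of -1.55 ± 0.13 (SE), 2.93-fold lower. Of all genes, 0.0873% differed by more in size. The gene has a single probe set here, so this value rests on it alone.

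CHAC2, the related enzyme that acts on glutathione more slowly and is regarded as constitutive, read 0.00, 0.19 and -0.12 on the myocilin arrays, against 0.27, 0.23 and 0.16 on the control arrays. Myocilin array 2 lay within the control values and the others below them. The log2 difference was -0.20 ± 0.08 (SE, 95% interval -0.38 to -0.02) and did not pass the threshold over all genes. It passed without myocilin array 2, at -0.28.

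Both enzymes of transsulfuration fell. CTH, which releases cysteine from cystathionine, read -0.49, -0.30 and -0.44 on the myocilin arrays, against 0.46, 0.87 and 0.26 on the control arrays. The lines did not overlap, and the control arrays spread over 0.60 log2 units, against 0.20 for the myocilin arrays. The log2 difference was -0.94 ± 0.13 (SE), 1.92-fold lower, and its probe sets were close, at -0.99 and -0.89, both past the threshold. CBS, which forms cystathionine, read -0.14, -0.31 and -0.20 on the myocilin arrays, against 0.11, 0.37 and 0.11 on the control arrays. Here too every myocilin array was below every control array. The log2 difference of CBS was -0.41 ± 0.08 (SE), 1.33-fold lower. Of its 3 probe sets 2 fell, at -0.48 and -0.44, and the third, at -0.32, overlapped between the lines and did not pass.

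Of the genes of glutathione synthesis, GCLM fell, by 0.24, while GCLC and GSS did not pass the threshold. GCLC, the catalytic subunit of the ligase, read 0.07, 0.06 and -0.03 on the myocilin arrays, against 0.02, -0.06 and 0.01 on the control arrays. The values interleave, and the log2 difference was 0.04 ± 0.06 (SE, 95% interval -0.09 to 0.18). Its probe sets read -0.03, -0.03 and 0.20 with none past the threshold, so that the sign of the gene's difference is set by the third, the only one ending in _s_at, and turns to -0.03 without it.

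GCLM, the modifier subunit that raises the activity of the ligase, read -0.24, -0.14 and -0.27 on the myocilin arrays, against 0.03, 0.00 and 0.06 on the control arrays. The lines did not overlap, and the log2 difference was -0.24 ± 0.06 (SE), 1.18-fold lower. The fall came mainly from 1 of its probe sets, at -0.35 and past the threshold, while the other, at -0.14, was not. The call was lost without myocilin array 1 (-0.23), myocilin array 3 (-0.22), control array 1 (-0.25) or control array 3 (-0.23). GSS, which completes the tripeptide, read -0.13, -0.11 and 0.02 on the myocilin arrays, against 0.01, 0.03 and 0.01 on the control arrays. Only myocilin array 3 reached the control values, and the difference of -0.09 ± 0.06 (SE, 95% interval -0.23 to 0.04) did not pass.

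GSR, the glutathione reductase, read 0.24, 0.13 and 0.22 on the myocilin arrays, against -0.23, 0.09 and -0.08 on the control arrays. As the mean of its 2 probe sets, the myocilin arrays were all higher, the nearest values of the lines being 0.04 apart. Each probe set alone, at 0.30 and 0.24, overlapped between the lines and did not pass. The log2 difference was 0.27 ± 0.08 (SE, 95% interval 0.09 to 0.45) and did not pass over all genes, though it did without control array 2, at 0.35. Of all genes, 8.28% rose and 7.35% fell. Among the 50 measured genes nearest to GSR on chromosome 8, 10 rose and 1 fell, with a median log2 difference of 0.14. The part of this region in the value of GSR was not tested. For the other 9 genes the 50 nearest genes had medians of -0.05 to 0.07. Among the 50 nearest to CTH, on chromosome 1, 10 fell and 1 rose, with a median of -0.03 beside the -0.94 of CTH itself, and the part of this region was likewise not tested. Of the 50 nearest to each of the other 8 genes, 0 to 6 rose and 1 to 5 fell.

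The peroxidases went opposite ways. GPX8, an endoplasmic reticulum membrane protein that carries cysteine in place of selenocysteine, read -0.50, -0.44 and -0.52 on the myocilin arrays, against 0.16, 0.39 and 0.16 on the control arrays. The gap between the lines, 0.60, was wider than the range within either. The log2 difference was -0.72 ± 0.07 (SE), 1.65-fold lower, and both probe sets fell, by 0.65 and 0.80. GPX4, the selenoprotein that reduces lipid hydroperoxides in membranes and protects from ferroptosis, read 0.29, 0.28 and 0.39 on the myocilin arrays, against 0.15, 0.09 and 0.10 on the control arrays. Its myocilin arrays were all higher, by a mean log2 difference of 0.21 ± 0.06 (SE), 1.15-fold. That call is the weakest of the set. The same values of its only probe set did not pass in the fit over probe sets, and the gene did not pass when any 1 of the 6 arrays was left out, at 0.17 to 0.23.

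**Figure D2:**
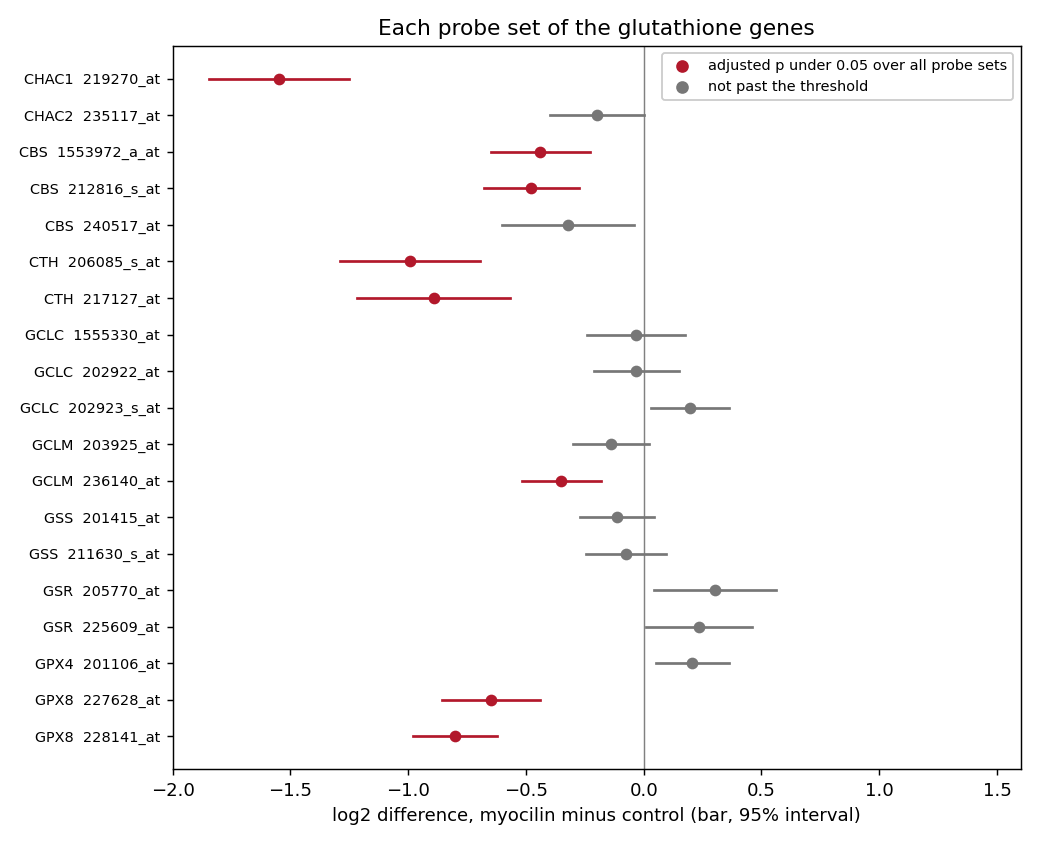
Log2 difference, myocilin minus control (horizontal axis), of each of the 19 probe sets, with its 95% interval from limma as a bar. The 8 probe sets in red (those of CHAC1, CTH and GPX8, 2 of CBS and 1 of GCLM) passed the threshold over all probe sets and all lie left of 0, and the others are grey.

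**Figure D3:**
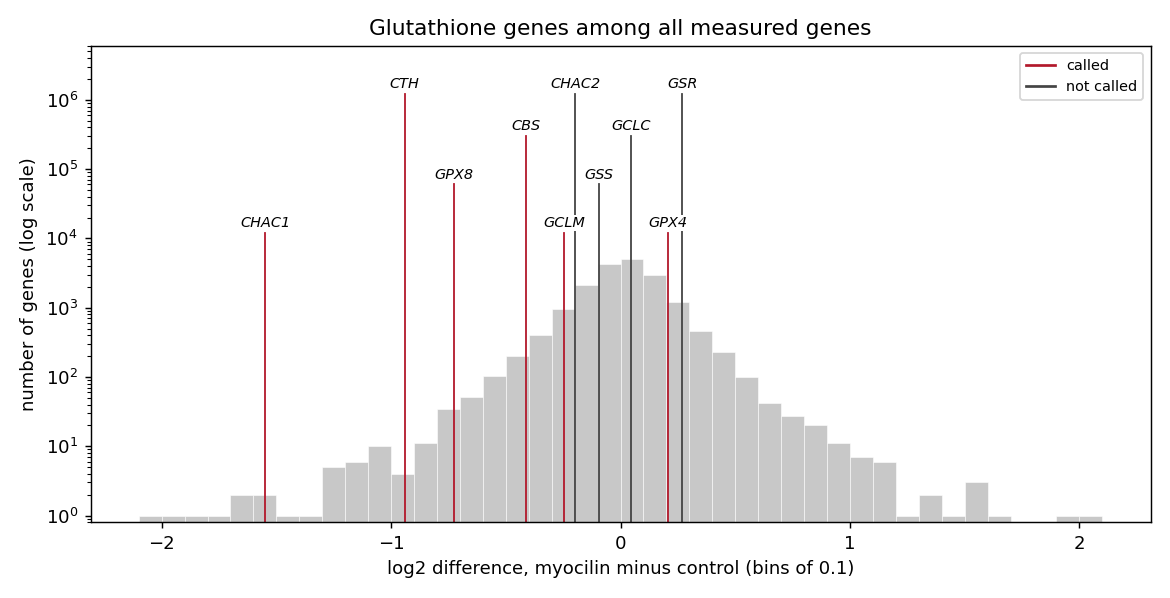
Log2 difference of the 10 genes (vertical lines, red where called) over the number of genes in bins of 0.1 log2 units (grey bars, logarithmic axis), with 5 genes beyond the plotted range. CHAC1, CTH and GPX8 lie in the thin left tail, where 0.0873%, 0.365% and 0.823% of genes differed by more in size, and the other members lie nearer the middle.

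Within the control line, control array 2 was the highest control array for 6 of the 10 genes, where it was the highest for 33.6% of all genes. These were CHAC1, CTH, CBS and GPX8, which fell, and GSR and GSS, which did not pass. It lay 0.29, 0.34, 0.17 and 0.16 above the control mean of CHAC1, CTH, CBS and GPX8, 0.16 above that of GSR and 0.01 above that of GSS. For GCLM, which also fell, control array 2 was 0.03 below the mean. The differences of the first 4 genes without that array are smaller than with it but kept their call, at -1.40 for CHAC1, -0.77 for CTH, -0.33 for CBS and -0.65 for GPX8.

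By the root mean square distance over the 6 arrays, after each gene was centred on its own mean, the 5 genes nearest to CHAC1 were KCNJ2, a potassium channel gene, MFAP2, a microfibril protein gene, LINC02806, SLC7A11 and CHRDL1, an antagonist of bone morphogenetic proteins. Their distances were 0.18 to 0.20 log2 units and their differences between the lines -1.77 to -1.26. Among the other 9 members CTH was the nearest, at 0.34 and rank 26 of 18337, followed by GPX8 at 0.44 and rank 59 and CBS at 0.58 and rank 305. The ranks are a description, taken over arrays that all carry the difference between the lines. A gene whose fall is close in size to that of CHAC1 therefore tends to rank near it. The ranks are not separate evidence of likeness.

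Other genes that supply, use or recycle glutathione, and genes of thioredoxins, selenoprotein synthesis, ferroptosis and transcriptional control, were taken from 10 lists. Of 152 genes listed, 143 were measured. Of these, 12 rose, 26 fell and the rest did not pass, 8.39% and 18.2% of the measured genes, with a median log2 difference of -0.04. The shares over all genes were 8.28% risen and 7.35% fallen. The total of 38 called was 25 without myocilin array 1, 23 without myocilin array 2 and 24 without control array 2. The falls were 17, 16 and 17 without these arrays, and the rises were 7 without myocilin array 2, myocilin array 3 or control array 2. The lists, like the members, were written with earlier results of these data known. Nothing is therefore read from their counts, together or list by list, beside the shares over all genes.

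Genes that carry cystine, cysteine or glutathione across membranes included the largest change. SLC7A11, the cystine and glutamate exchanger that feeds cysteine to glutathione synthesis, read -1.83, -1.65 and -1.35 on the myocilin arrays, against 0.12, 0.38 and 0.00 on the control arrays. All 3 of its probe sets fell, with log2 differences of -2.16 to -1.05. Of 15 genes measured, 3 fell and 1 rose, with a median of 0.02. SLC1A4, a transporter of alanine, serine and cysteine, fell by 0.72 ± 0.09 (log2, SE, limma adjusted p = 0.00134), though 2 of its 5 probe sets, at -0.25 and -0.12, did not pass. SLC7A9, the light chain of the cystine transporter of kidney tubules, rose by 0.36 ± 0.08 (limma adjusted p = 0.0159). The SLC1A4 probe sets that passed, and the only probe set of SLC7A9, end in _s_at or _x_at. Without such probe sets the list had 2 calls, against 4. The glutamine transporter SLC1A5, named after its value was seen, fell by 0.37. SLC3A2, the heavy chain that pairs with SLC7A11, was also chosen after its value was seen and read -0.11, not past the threshold.

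The gamma-glutamyl cycle holds other routes of glutathione breakdown. Over all genes 8.28% rose and 7.35% fell. Of 11 measured genes of the gamma-glutamyl cycle 1 rose and 0 fell, also 0 lower at an unadjusted limma p under 0.05 (median 0.04): DPEP3, a membrane dipeptidase gene, by 0.32 ± 0.07 (log2, SE, limma adjusted p = 0.0204), a call lost without myocilin array 2, myocilin array 3 or control array 3. GGCT, the cyclotransferase for gamma-glutamyl amino acids, and GGT1, the surface enzyme that cleaves extracellular glutathione, were chosen after their values were seen and read -0.12 and -0.08, neither past the threshold. In the methionine cycle and cysteine catabolism 4 of 19 fell and 3 rose (median -0.09). SUOX, the sulfite oxidase gene, fell by 0.39 and MAT2A, which makes S-adenosylmethionine, by 0.33, while TST, a mitochondrial sulfurtransferase gene, rose by 0.28 and MTRR, which reactivates methionine synthase, by 0.23. ETHE1 at -0.30, CDO1 at -0.19 and ADO at 0.21, the other calls, were named after their values were seen. The second probe sets of SUOX, at -0.35, MAT2A, at -0.24, and MTRR, at 0.15, did not pass, and every probe set of MAT2A and MTRR ends in _s_at. The list had 1 to 4 calls, against 7, when any 1 array was left out, and 3 without _x_at and _s_at probe sets.

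Among enzymes that use glutathione, 5 other glutathione peroxidases gave 0 rises and 0 falls (median 0.07), GPX5 being the nearest to the threshold at 0.16 ± 0.06 (log2, SE, limma adjusted p = 0.0908), and 0 were called in every alternative. At an unadjusted limma p under 0.05, 1 was higher and 2 were lower. Of 19 glutathione transferases 4 fell and 1 rose (median -0.10). MGST1, a microsomal transferase gene, fell by 0.57 ± 0.07 with all 4 probe sets past the threshold, GSTT2 fell by 0.43, and GSTM1 rose by 0.44. GSTT2 and GSTM1 have near-identical relatives, so their probe sets may read more than 1 gene. GSTO2 at -0.33 and GSTK1 at -0.29, named after their values were seen, also fell. Of 14 glutaredoxin, thioredoxin and peroxiredoxin genes GLRX3 rose by 0.29 and PRDX2 fell by 0.20 (median 0.03). The rise of GLRX3 rests on 2 probe sets ending in _x_at, at 0.45 and 0.42, while the third read -0.00104, and for PRDX2 1 of 4 probe sets passed. Of this list, 0 genes were called without myocilin array 1, and 1 without myocilin array 2 or any 1 control array.

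Among 19 genes of NADPH supply, the reductant that GSR uses, 3 fell and 0 rose, also 0 higher at an unadjusted limma p under 0.05 (median -0.02). These were ME2, the mitochondrial malic enzyme gene, at -0.42 ± 0.06, IDH2 at -0.35 ± 0.07 and, named after its value was seen, IDH1 at -0.21. Of the IDH2 probe sets, both at -0.35, only that ending in _s_at passed. Of 12 genes of selenoprotein synthesis and transport, which GPX4 depends on, 2 fell and 1 rose (median -0.06). SELENOP, the plasma selenium carrier, fell by 0.57 ± 0.06, with 2 of 3 probe sets past the threshold, the seryl-tRNA synthetase gene SARS1 by 0.31, and the SELENOP receptor gene LRP8 rose by 0.34. The LRP8 probe set at 0.34 did not pass, while the other, at 0.33, did. The list had 1 call, against 3, without myocilin array 1, myocilin array 2 or control array 2. Of 15 genes of iron and lipid metabolism linked to ferroptosis 2 fell and 2 rose (median 0.03), the iron exporter SLC40A1 at -0.68 ± 0.08 and the transferrin receptor TFRC at -0.30 against the ferritin receptor NCOA4 at 0.35 and the lipoxygenase ALOX5 at 0.32. Every probe set of NCOA4 and ALOX5 ends in _s_at, 2 of the 5 probe sets of TFRC, at 0.04 and -0.09, did not pass, and the list had 1 call without _x_at and _s_at probe sets.

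Of 14 measured regulators reported to control glutathione genes, 7 fell and 2 rose (median -0.25), where 7.35% of all genes fell and 8.28% rose. The list had 5 calls, against 9, without _x_at and _s_at probe sets, and 6 without myocilin array 1 or myocilin array 2. TRIB3, a pseudokinase induced by ATF4, read -0.74, -0.69 and -0.53 on the myocilin arrays, against 0.09, 0.36 and 0.00 on the control arrays. It fell by 0.80 ± 0.10 (log2, SE, limma adjusted p = 0.000921), and DDIT3, the stress factor CHOP, by 0.73 ± 0.16 (limma adjusted p = 0.0156). The small MAF genes MAFF and MAFG, partners of NRF2, rose by 0.53 ± 0.07 and 0.47 ± 0.08, each with 1 of 2 probe sets past the threshold. Named after their values were seen, CEBPB fell by 0.72, CEBPG, a partner of ATF4, by 0.49, ATF5 by 0.45, KEAP1, which marks NRF2 for degradation, by 0.25 and NFE2L1 by 0.24. Chosen in the same way, ATF4 itself at -0.21 and NFE2L2, the gene of NRF2, at -0.07 did not pass. Nor did NUPR1 at -0.28, ATF3 at 0.05 and BACH1 at -0.00308, the other measured genes of the list.

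**Figure D4:**
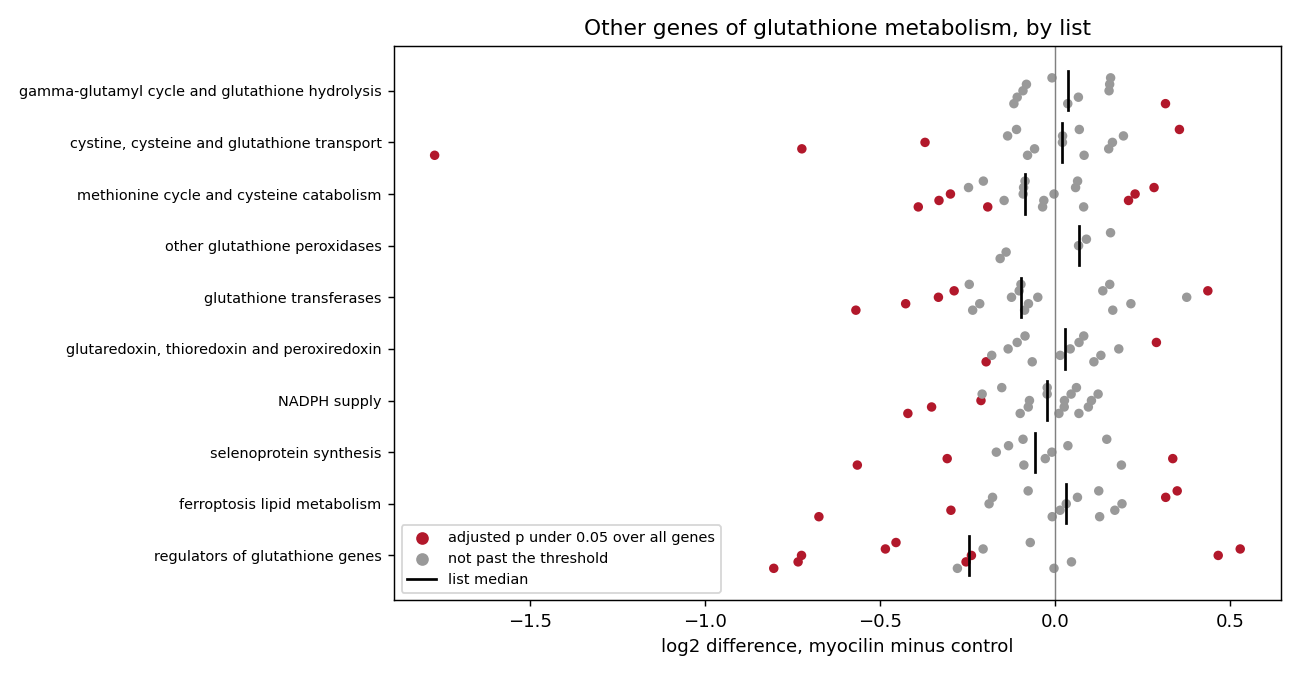
Log2 difference, myocilin minus control (horizontal axis), of every measured gene in the 10 lists, 1 point per gene, red where the adjusted p over all genes was under 0.05, with a black bar at each list's median. List medians run from -0.25 for the regulators to 0.07 for the other glutathione peroxidases, and SLC7A11 at -1.77 is the point farthest to the left.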

How the data were processed

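Total RNA of 6 samples was read on 6 arrays, 3 per line; each was grouped by its source name. The table deposited by the authors holds signed values on a log scale, read as log2 from the values. How the authors corrected, summarised and normalised them is not given in the sources used here, and no dim-probe filter or detection call could be made on centred values. Titles end in 7 to 9 for myocilin and 1 to 3 for control, so order of handling and line cannot be told apart. Symbols came from the platform annotation: 37460 probe sets had 1 gene, 1728 several and 2563 were not listed. Of the first, 37416 were updated by Entrez identifier through RefSeq (GRCh38.p14). A gene's value is the mean of its probe sets.

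Lines were compared with limma 3.58.1 (lmFit, eBayes) in R 4.3.3, over all genes and over all probe sets, with Benjamini-Hochberg adjustment at 0.05. In data simulated over 18338 genes with independent noise, 200 genes were changed by known amounts. Changes of 0.3, 0.5 and 1 log2 units were found in 35.8%, 80.6% and 98.5% of genes so changed, with 9 false calls among 152. The 2866 genes called here far exceed the genes changed in the simulation, and its noise held no effect shared by arrays of a line. These rates therefore need not hold for the real comparison. The members, lists and tests were chosen with earlier results of these data known. Named were MYOC, all members, up to 2 rises and 2 falls by size in each list (without any, the gene of lowest p), and the 5 genes nearest to CHAC1. Of 5 reference genes TBP rose, by 0.21, and the others, at -0.10 to -0.03, were not called. The small number of arrays limits the precision.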

Additional observations from a re-analysis of the deposited data

How the results depend on the processing

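Alternatives were quantile normalisation, median centring of arrays (no change, since medians were 0), array weights, a trended and robust eBayes, omission of _x_at and _s_at probe sets, the median of probe sets, the first probe set by ID and each array left out. CHAC1, CTH, CBS and GPX8 kept their fall in all 7 settings and all 6 fits without an array. The probe set settings could not change the value of CHAC1, which has 1 probe set. The median could not change those of CTH and GPX8, with 2 each, and omission kept both probe sets of GPX8. The count of risen members, 1, was 0 with trend and robust fitting, 0 without _x_at and _s_at probe sets, 0 with the first probe set and 2 with array weights, where GSR passed at 0.28. GCLM did not pass with its first probe set (-0.14). Without _x_at and _s_at probe sets, where fewer genes are tested, 22 pathway genes were called, 4 of them higher, and 1878 genes in all against 2866. Leaving out each array gave 0 to 1 risen members, 23 to 30 called pathway genes, 7 to 10 higher and 16 to 21 lower, and 1613 to 2220 genes in all. Each fit without an array had 1 array fewer and so less power to call a gene. The part of this in the lower counts, and any other cause, was not tested. No paired analysis was possible because the labels give the lines no shared replicate numbers. Filters on dim probe sets and background correction could not be run on centred values.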
